A study of Mus musculus with 4 samples.

Results

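The genes described are the chemokine ligands of mouse: protein-coding genes whose GENCODE M21 symbol is Ccl or Cxcl with a number, and Cx3cl1. The annotation holds 36 such genes, of which 31 are among the 22456 genes of the expression table and 27 averaged log2 of 10 (3.32) or more over the libraries and were tested. They were measured by RNA-seq in fibroblasts from mammary tumours of Balb/cAnN mice, collected 8 days after 4T1 cells, a transplantable Balb/c mammary carcinoma line, were injected into the fat pad. In the DMSO group (2 libraries) the 4T1 cells had been kept in the solvent DMSO before injection, and in the GSK group (2 libraries) in 5 µM of the small molecule GSK269962A for 5 days. As the labels describe it, the compound was given to the cancer cells before injection and not to the fibroblasts. "Fibroblasts" means the cells left after those carrying CD45, CD31, CD326 or human CD2 had been removed on magnetic columns, so pericytes and other mesenchymal cells are included. Whether each library is a separate animal or pool is not stated, and the p-values therefore rest on a spread that may be technical.

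Chemokines are small secreted proteins that direct the movement of leukocytes through G-protein-coupled receptors. Their names follow the spacing of the first cysteines (CC, CXC and CX3C), and their receptors decide which cells respond: CXCR2 is carried by neutrophils, CCR2 by inflammatory monocytes, CXCR3 by activated T and NK cells. Fibroblasts of inflamed tissue and of tumours are known producers, with Cxcl12 made constitutively and Cxcl1, Cxcl2 and Ccl2 induced by interleukin-1, TNF and other activators of NF-kB.

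Expression is given as deposited, normalised and in log2 units. The depth of the libraries is unknown, so intervals for counting error are left out. All 11 fibroblast markers passed the filter, with Col1a1 at 20.51, whereas many defining markers of other cell types lay below it. Of 12 monocyte and macrophage markers 5 passed the filter, with Adgre1 at 0.79 and C1qa at 2.95 and the highest, Csf1r, at 8.28. Of 6 measured neutrophil markers 2 passed it, Mmp8 (5.23) and Il1b (4.15). S100a8 (0.80), S100a9 (1.17), Cxcr2 (0.78) and Csf3r (-0.41) lay below it. The summed level (log2) of the monocyte and macrophage markers was 9.28 to 9.36 in DMSO and 9.11 to 9.24 in GSK, and that of the neutrophil markers 5.89 to 5.93 and 5.96 to 6.02. That of 8 pan-leukocyte markers was 10.55 to 10.78 in DMSO and 11.21 to 11.85 in GSK, carried by Cd53 (mean 11.03), while Ptprc, which encodes CD45, was at 3.81. The 9 endothelial markers summed to 10.70 to 10.71 and 10.97 to 11.40, carried by Flt1 (mean 10.84), with Pecam1 at 3.31. The 8 epithelial and 4T1 markers in the table summed to 9.37 to 9.52 and 9.03 to 9.22, carried by Krt19 (8.82), with Epcam at 0.32. Of them 4 passed the filter, and all 4 were lower in GSK on average (50.5% of all tested genes were). At an unadjusted p under 0.05 in limma 3 were lower (8.13% of all tested genes) and 0 higher (7.88%). The pericyte and smooth muscle markers (highest Acta2, 14.91) summed to 15.35 to 15.64 and 15.65 to 15.74. All 9 passed the filter, with a median difference of 0.165, and 2 of them had a negative difference (50.5% of all tested genes). At an unadjusted p under 0.05 in limma 4 of the 9 were higher in GSK (7.88% of all tested genes) and 1 lower (8.13%). Those of T and NK cells summed to 8.88 to 9.26 and 8.79 to 8.89, carried by Cd3e (8.62). Of 7 measured T and NK markers 2 passed the filter, Cd3e and Trac (6.51), with Cd3d at 0.02 and Nkg7 at -0.42. Dendritic (highest Zbtb46, 7.87), mast (Hdc, 7.06) and platelet (Gp1bb, 6.78) markers summed to between 7.11 and 7.99 in every library. Of 7 dendritic markers 1 passed the filter (Zbtb46), and of 5 platelet markers 2 did. For B cells 0 of 4 markers passed it (highest Cd79b, 2.08). In bulk RNA, fewer cells of a type and less RNA per cell cannot be told apart, and the part of these shifts in the chemokine values was not tested.

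Several chemokine genes were strongly expressed by the fibroblasts. Levels of different genes are compared per kb of the longest coding transcript, as log2 value minus log2 of the length in kb, averaged over the 4 libraries. On that scale Cxcl1 (13.69), Cxcl14 (13.40), Ccl2 (13.06), Ccl7 (12.91) and Ccl11 (12.68) were highest. Among these neighbours the order was not fixed, since the libraries overlapped: Cxcl1 ran from 13.16 to 14.21 and Cxcl14 from 13.25 to 13.70. With the length of all exons joined in place of the longest transcript, the same 5 genes held the first 5 ranks, with Cxcl14 first and Cxcl1 at rank 3. Ccl8 (11.63), Cxcl9 (11.35), Cxcl10 (10.59), Cxcl12 (10.58) and Cxcl2 (10.19) came next, then Cxcl5 (9.61), Cxcl16 (9.27), Cxcl3 (8.08) and Cx3cl1 (6.65). The other 13 tested members lay at or below 5.88, that of Ccl19.

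The members that did not reach the filter are accounted for as follows. Ccl17, a ligand of CCR4 and the one nearest below the filter, had a mean log2 value of 3.13, against 3.39 for Ccl28, the nearest above it. Ccl4 was at 2.90, Ccl27b at 0.31 and Ccl22, the other CCR4 ligand, at -0.45. The 5 members outside the table, not analysed here, are Ccl1, Ccl21b, Ccl26, Cxcl15 and Cxcl17. Neither group's mean was below 3.38 in any tested member, so no member passed through 1 group alone.

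**Figure D1:**
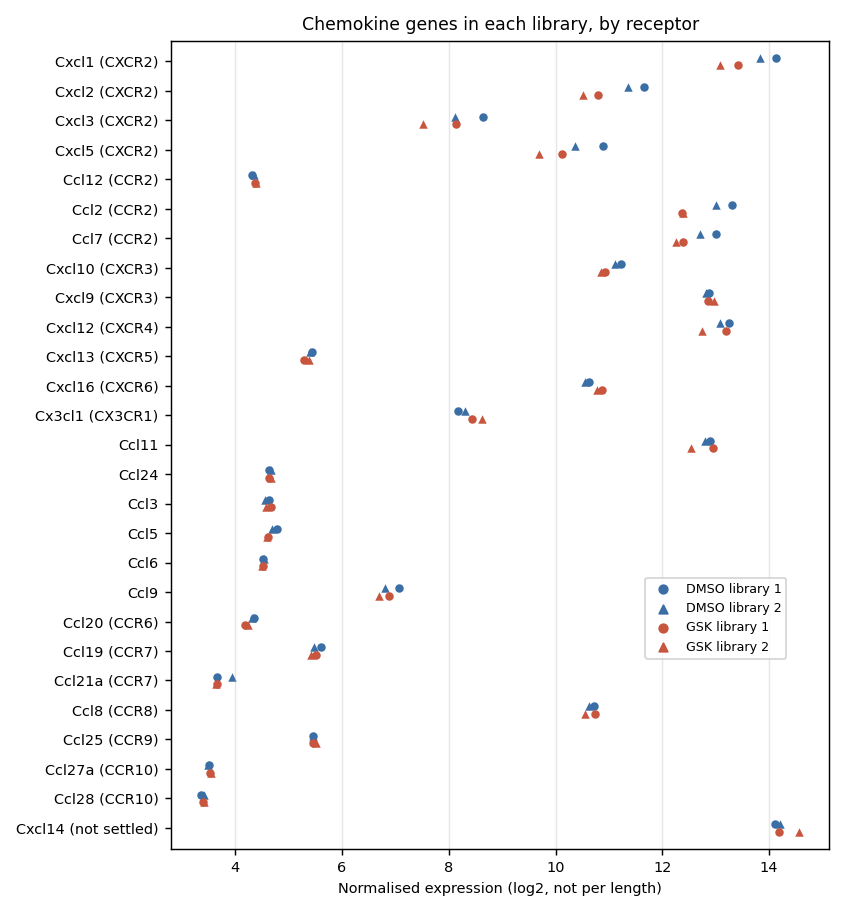
Normalised expression (log2, not corrected for length) of the 27 tested chemokine genes in each library, DMSO in blue and GSK in red, with circles for library 1 and triangles for library 2 and the receptor in brackets for most. Cxcl1, Cxcl2, Cxcl5, Ccl2 and Ccl7 have both red points left of both blue points, while Cxcl9, Ccl8 and Ccl24 overlap.

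The comparison of GSK with DMSO asks which chemokine genes differ in fibroblasts of tumours grown from pre-treated cancer cells. No chemokine gene passed an adjusted p of 0.05 in limma (0 of 27, where 41 of 14548 tested genes, 0.282%, did). At an unadjusted p under 0.05 limma counted 10. The sizes were uneven: 6 members, the CXCR2 ligands Cxcl1, Cxcl2, Cxcl3 and Cxcl5 and the CCR2 ligands Ccl2 and Ccl7, had differences between -0.54 and -0.85 (log2), lower in GSK. Differences of at least 0.5 in size were found in 0.777% of all tested genes. At an adjusted p under 0.10, 5 members were counted, all lower in GSK (Ccl2, Cxcl2, Cxcl1, Ccl7 and Cxcl10), where 2.50% of all genes were counted in either direction and 1.33% lower. At an unadjusted p under 0.05 8 members were lower (8.13% of all genes) and 2 higher (7.88% of all genes), together 37.0% of the 27 against 16.0% of all genes. The median difference over the 27 members was -0.09 and over all tested genes -0.00074. Over the 15 members that averaged log2 of 50 (5.64) or more it was -0.21, and a median over all genes at that higher filter was not taken. In 11 members both GSK libraries lay below both DMSO libraries (24.5% of all genes) and in 5 above (24.1%), so that 16 did not overlap (48.6% of all genes). The difference was negative in 18 of 27 members and in 50.5% of all genes.

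**Figure D2:**
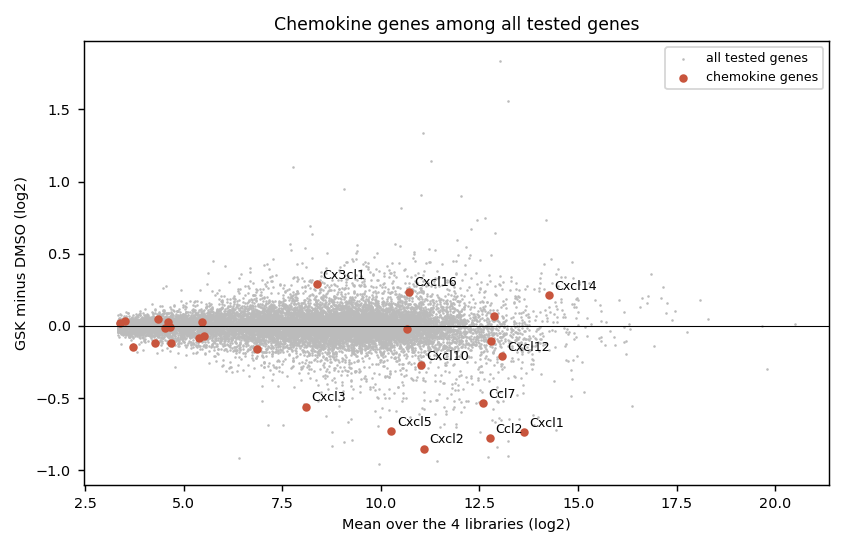
Difference between groups (GSK minus DMSO, log2) against mean log2 expression for all 14548 tested genes in grey and the 27 chemokine genes in red, with names where the difference is at least 0.2 in size. Cxcl1, Cxcl2, Cxcl3, Cxcl5, Ccl2 and Ccl7 lie between -0.54 and -0.85, and the low-expressed members lie close to 0.

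The CXCR2 ligands, which attract neutrophils, had the most negative median difference of any receptor group, -0.73. Cxcl2 (ENSMUSG00000058427, GRCm38 chr5:90903871-90905938) was at 11.66 and 11.36 in DMSO libraries 1 and 2 and at 10.80 and 10.52 in GSK libraries 1 and 2. The groups did not overlap, and the difference was -0.85 ± 0.12 (SE, 2 libraries a group), a 1.80-fold lower value (limma adjusted p = 0.0576). Cxcl1 (ENSMUSG00000029380, chr5:90891241-90893115), the highest of them per kb, stood at 14.14 and 13.83 in DMSO and 13.41 and 13.09 in GSK. Its groups were also apart, by -0.74 ± 0.14 (limma adjusted p = 0.082). Cxcl5 (ENSMUSG00000029371, chr5:90759360-90761624) had 10.89 and 10.37 in DMSO against 10.12 and 9.69 in GSK, a difference of -0.73 ± 0.20 (limma adjusted p = 0.157). The replicates of Cxcl5 were far apart, with an SD of 0.37 in DMSO and 0.31 in GSK. Cxcl3 (ENSMUSG00000029379, chr5:90786103-90789600) had 8.64 and 8.12 in DMSO and 8.13 and 7.51 in GSK. DMSO library 2 and GSK library 1 were nearly level there, and the difference of -0.56 ± 0.23 was within the spread between libraries (limma adjusted p = 0.32; 95% confidence interval -1.13 to 0.01). In Cxcl1, Cxcl2 and Cxcl5 the libraries kept 1 order, with DMSO library 1 highest, then DMSO library 2, GSK library 1 and GSK library 2. Without DMSO library 1 the 4 differences were -0.58 (Cxcl1), -0.70 (Cxcl2), -0.30 (Cxcl3) and -0.47 (Cxcl5), and without DMSO library 2 they were -0.89, -1.0, -0.82 and -0.99, where Cxcl1, Cxcl2 and Cxcl5 passed the threshold (limma adjusted p = 0.0399, 0.0184 and 0.0423). With a library left out, its group has 1 library, which is assumed to vary like those of the other group, so the spread in such a fit comes from the other group alone. Without GSK library 1 Cxcl2 was at -0.99 (limma adjusted p = 0.0477) and Cxcl3 at -0.87, and without GSK library 2 Cxcl3 was at -0.25.

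These 4 genes are neighbours. With Cxcl15 they occupy 146.6 kb of chromosome 5 (GRCm38 chr5:90759360-90905938), and they are transcribed on a single strand. RefSeq promoters (GRCm38.p6, 250 bases before to 50 bases after the start) matched 20 of the 27 tested members. Those without one are Ccl2, Ccl5, Ccl7, Ccl11, Ccl24, Cxcl5 and Cxcl16. The promoters of Cxcl1, Cxcl2 and Cxcl3 are shown because they hold, with capitals, the same 11-base run GGGAATTTCCC, made of overlapping matches to the kappa B consensus that NF-kB binds. It begins 71 bases before the start in Cxcl1, 97 in Cxcl2 and 73 in Cxcl3. All are on the plus strand, at chr5:90890995-90891294, chr5:90903649-90903948 and chr5:90785851-90786150.
Cxcl1: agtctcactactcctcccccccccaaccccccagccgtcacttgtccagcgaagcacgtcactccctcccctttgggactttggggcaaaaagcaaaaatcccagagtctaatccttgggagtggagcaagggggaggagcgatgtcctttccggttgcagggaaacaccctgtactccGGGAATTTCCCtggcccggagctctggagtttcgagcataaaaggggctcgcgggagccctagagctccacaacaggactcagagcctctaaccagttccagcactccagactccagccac
Cxcl2: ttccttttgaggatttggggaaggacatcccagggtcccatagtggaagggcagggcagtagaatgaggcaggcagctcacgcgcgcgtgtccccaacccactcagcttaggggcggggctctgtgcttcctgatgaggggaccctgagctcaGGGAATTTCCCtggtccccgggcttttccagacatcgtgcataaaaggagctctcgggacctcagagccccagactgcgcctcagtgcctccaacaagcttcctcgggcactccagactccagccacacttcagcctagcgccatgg
Cxcl3: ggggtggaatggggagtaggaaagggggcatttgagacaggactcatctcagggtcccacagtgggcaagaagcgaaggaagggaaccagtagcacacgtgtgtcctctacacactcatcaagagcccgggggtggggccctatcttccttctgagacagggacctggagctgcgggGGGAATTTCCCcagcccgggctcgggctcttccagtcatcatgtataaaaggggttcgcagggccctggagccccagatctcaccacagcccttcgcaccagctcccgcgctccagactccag
This run was read from the Cxcl1 promoter and then searched for, so its presence in Cxcl1 was given in advance. On either strand it occurs in 14 of 32851 RefSeq promoters of the same length (0.0426%). Among the members with a promoter, Cxcl1, Cxcl2 and Cxcl3 held it. The kappa B consensus of 10 bases, searched on both strands, was found in 7 of the 29 promoters of the 23 members with one, against 4.51% of all promoters. The genes with it were Cxcl1, Cxcl2, Cxcl3, Cxcl10, Ccl9, Ccl20 and Ccl27a; in Cxcl1, Cxcl2 and Cxcl3 the run gives 2 overlapping matches. Of the other motifs sought on both strands, the AP-1 site (TGANTCA) stood in 7 of 29, from 6 members (7.81% of all promoters). TATAAA stood in 9 (13.6%) and the cAMP response element (TGAC directly followed by GTCA) in 0 (1.79%). The 29 include promoters of Ccl17, Ccl22 and Ccl27b, which lay below the filter, and several promoters for some genes. Ccl27b was among the genes with AP-1 and TATAAA matches. A match describes letters only, and binding was not measured.

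Among CCR2 ligands, which attract monocytes, Ccl2 and Ccl7 had negative differences that missed the threshold and Ccl12 a small positive one near the filter, where a difference may be understated. The differences between these genes were not tested. Ccl2 (ENSMUSG00000035385, GRCm38 chr11:82035571-82037453), also called MCP-1, was at 13.31 and 13.00 in DMSO and at 12.37 and 12.38 in GSK. Both GSK libraries (SD 0.01) lay below both DMSO libraries (SD 0.22). Its difference of -0.78 ± 0.10, a 1.71-fold lower value, had the smallest p of all members (limma adjusted p = 0.0543). Ccl7 (ENSMUSG00000035373, chr11:82045712-82047525), the MCP-3 gene next to it, had 13.01 and 12.71 in DMSO and 12.39 and 12.26 in GSK, without overlap. The difference was -0.54 ± 0.10 (limma adjusted p = 0.0874). Ccl12, the third gene of the group, was expressed near the filter at 4.31 and 4.35 in DMSO and 4.36 and 4.39 in GSK (0.05 ± 0.03, limma adjusted p = 0.424). Without DMSO library 1 Ccl2 was at -0.62 and Ccl7 at -0.39, and without DMSO library 2 at -0.93 and -0.69, where both passed the threshold (limma adjusted p = 0.00909 and 0.0238) with the spread taken from the GSK libraries alone.

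The 5 tested genes at this locus of chromosome 11 (chr11:82035571-82305690, with Ccl1) had differences from -0.78 to 0.05. Ccl11, or eotaxin, a CCR3 ligand that attracts eosinophils, lies next to Ccl7 and had 12.89 and 12.80 in DMSO and 12.94 and 12.54 in GSK. GSK library 1 was the highest and GSK library 2 the lowest of the 4, and the difference was -0.10 ± 0.13 (limma adjusted p = 0.73; interval -0.41 to 0.20). Ccl8, in mouse an agonist of CCR8, a receptor of T helper type 2 and regulatory T cells, stood at 10.72 and 10.63 in DMSO and 10.75 and 10.56 in GSK (-0.02 ± 0.07, limma adjusted p = 0.902; interval -0.20 to 0.15). The interval of Ccl11 overlaps that of Ccl7 (-0.79 to -0.29) but not that of Ccl2 (-1.02 to -0.53), and that of Ccl8 overlaps neither. The differences between genes were not tested. Without GSK library 2 Ccl11 was at 0.10 and Ccl8 at 0.07, without GSK library 1 at -0.31 and -0.12, and without DMSO library 1 Ccl8 was at 0.02.

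Ligands of CXCR3, which attract activated T and NK cells and are classical interferon targets, were lower in GSK (Cxcl10) or overlapped between groups (Cxcl9), and the difference between the genes was not tested. Cxcl10 (ENSMUSG00000034855, chr5:92346638-92348889) was at 11.22 and 11.11 in DMSO and 10.92 and 10.85 in GSK, with no overlap and a difference of -0.27 ± 0.06 (limma adjusted p = 0.0951). Cxcl9 (ENSMUSG00000029417, chr5:92321347-92328079), within 27.5 kb of it, had 12.88 and 12.81 in DMSO and 12.86 and 12.97 in GSK. Its groups overlapped, with a difference of 0.07 ± 0.06 (limma adjusted p = 0.616; interval -0.08 to 0.22), which ranged from 0.01 without GSK library 2 to 0.13 without GSK library 1. Cxcl11, which the reference annotates as a polymorphic pseudogene and which is therefore no member, was at 6.93 in DMSO and 7.03 in GSK (0.10 ± 0.06, limma adjusted p = 0.462). Exons of Cxcl10 overlap those of Art3 on the opposite strand, and whether counting used the strand is unknown here, and reads of the 2 genes may be mixed. Art3 was at 7.96 in DMSO and 8.06 in GSK.

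The promoters of Cxcl10 and Cxcl9 are shown as neighbouring genes that differ in these letters. Both are on the minus strand, at chr5:92348840-92349139 and chr5:92328030-92328329 (GRCm38.p6), and capitals mark the kappa B consensus and the interferon-stimulated response element (GAAA, any 2 bases, GAAA, both strands).
Cxcl10: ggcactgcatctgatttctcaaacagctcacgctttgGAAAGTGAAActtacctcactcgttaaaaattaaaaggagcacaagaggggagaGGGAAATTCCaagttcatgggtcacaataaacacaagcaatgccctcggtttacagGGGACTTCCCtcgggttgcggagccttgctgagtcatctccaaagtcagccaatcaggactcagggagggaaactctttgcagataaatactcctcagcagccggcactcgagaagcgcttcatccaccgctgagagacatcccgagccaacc
Cxcl9: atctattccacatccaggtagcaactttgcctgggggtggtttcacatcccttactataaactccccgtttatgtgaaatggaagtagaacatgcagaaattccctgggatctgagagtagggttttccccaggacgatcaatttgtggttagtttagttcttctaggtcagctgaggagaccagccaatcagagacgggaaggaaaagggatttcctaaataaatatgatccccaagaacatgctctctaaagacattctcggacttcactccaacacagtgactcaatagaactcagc
Cxcl10 holds 1 match to the response element and 2 to the kappa B consensus, and this window of Cxcl9 holds none of either. The response element was found in 3 of 29 member promoters (Ccl19, Cxcl10 and Cxcl14) and in 3.44% of all promoters. A gamma-activated site (TTCNNNGAA), the other interferon motif, was found in 2 of 29 (Ccl17 and Cxcl14) and in 8.30% of all.

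The other well-expressed ligands, Cxcl12, Cxcl14, Cxcl16 and Cx3cl1, either overlapped between groups or were higher in GSK. Cxcl12 (ENSMUSG00000061353, chr6:117168535-117181367), the CXCR4 ligand that retains many leukocytes and progenitors, was at 13.26 and 13.09 in DMSO and 13.18 and 12.74 in GSK. Only GSK library 2 stood below the rest, and the difference of -0.21 ± 0.14 (limma adjusted p = 0.523) was 0.01 without it and -0.43 without GSK library 1. Cxcl16 (ENSMUSG00000018920, chr11:70453983-70459984), the membrane-bound CXCR6 ligand for T and NKT cells, had 10.63 and 10.54 in DMSO and 10.87 and 10.78 in GSK. The groups were apart by 0.24 ± 0.05 (limma adjusted p = 0.116). Its value is uncertain, since 552 bases are shared with the opposite-strand gene Zmynd15, which was at 7.51 in DMSO and 7.56 in GSK. Cx3cl1 (ENSMUSG00000031778, chr8:94772009-94782427), fractalkine, the membrane-bound ligand of CX3CR1 on monocytes and NK cells, stood at 8.17 and 8.30 in DMSO and 8.44 and 8.61 in GSK. It had the largest positive difference of the members, 0.29 ± 0.07, 1.22-fold (limma adjusted p = 0.147). Cxcl14 (chr13:56288643-56296551), whose signalling receptor is not settled, was at 14.12 and 14.20 in DMSO and 14.18 and 14.57 in GSK. GSK library 2 alone was high, and the difference of 0.21 ± 0.13 (limma adjusted p = 0.462) was 0.02 without it and 0.41 without GSK library 1.

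**Figure D3:**
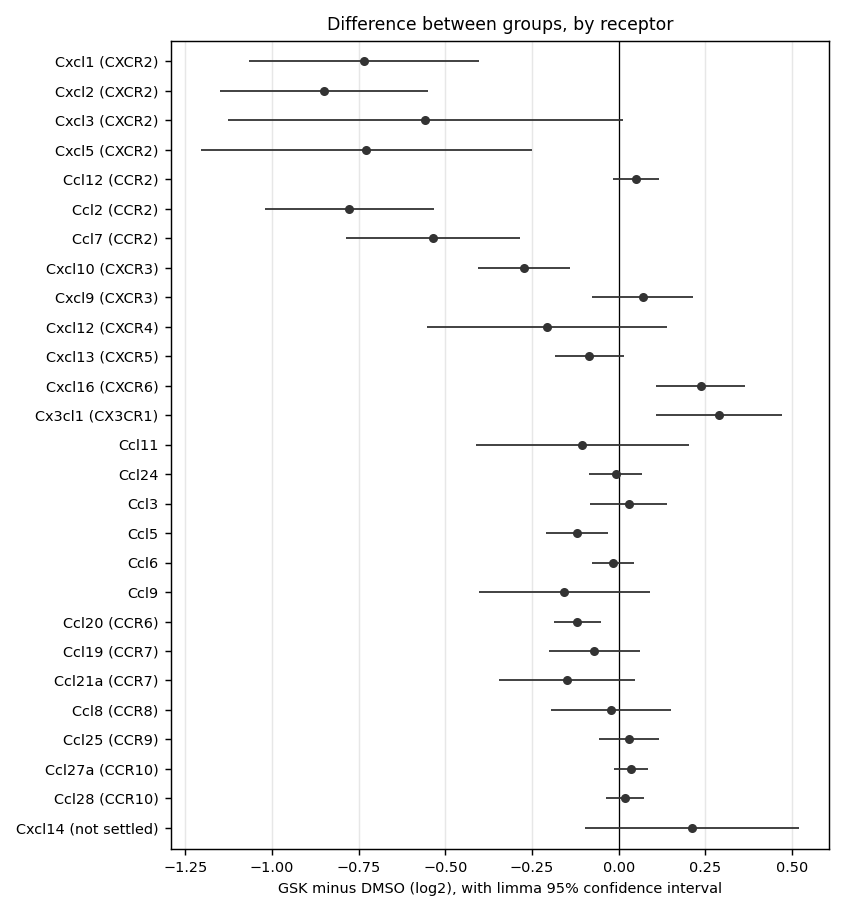
Difference between groups (GSK minus DMSO, log2) for each tested chemokine gene, with limma's 95% confidence interval for a single gene, by receptor. Intervals of Cxcl1, Cxcl2, Cxcl5, Ccl2, Ccl7, Cxcl10, Ccl5 and Ccl20 lie wholly below 0 and those of Cx3cl1 and Cxcl16 above it, though none passed after adjustment over all genes.

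Most remaining members were near the filter, where values of a gene lie close together in all libraries on the deposited scale, and a difference there may be understated. Ccl24, a CCR3 ligand that attracts eosinophils, was at -0.01 and Ccl3, which attracts monocytes and T cells, at 0.03. Ccl9, a CCR1 ligand at -0.16, had 7.07 and 6.80 in DMSO and 6.87 and 6.68 in GSK, which overlapped (limma adjusted p = 0.499); its difference was -0.02 when DMSO library 1 was left out, -0.06 when GSK library 2 was, -0.29 when DMSO library 2 was and -0.25 when GSK library 1 was. Ccl5, or RANTES, which attracts T cells and monocytes, was at 4.77 and 4.68 in DMSO and 4.61 and 4.60 in GSK (-0.12 ± 0.04, limma adjusted p = 0.195), and the difference was -0.07 without DMSO library 1. Ccl20, the CCR6 ligand for T helper type 17 cells and B cells, had 4.35 and 4.32 against 4.19 and 4.24 (-0.12 ± 0.03, limma adjusted p = 0.13). For Ccl5 and Ccl20, and also for Ccl6, Ccl21a and Cxcl13, both GSK libraries lay below both DMSO libraries (24.5% of all tested genes). For Ccl25 and Ccl27a both lay above (24.1%). The CCR7 ligands of lymph nodes, Ccl19 at -0.07 and Ccl21a at -0.15, and the CXCR5 ligand Cxcl13 at -0.09 had adjusted p-values of 0.374 to 0.57 in limma. Ccl21a was high in DMSO library 2 (3.93) and between 3.64 and 3.65 in the other 3 libraries, and its difference was -0.01 without DMSO library 2 and -0.29 without DMSO library 1. That of Ccl19 was -0.01 on leaving out DMSO library 1, -0.02 on leaving out GSK library 2, -0.13 on leaving out DMSO library 2 and -0.12 on leaving out GSK library 1, and that of Cxcl13 -0.04 without GSK library 1. Ccl6 was at -0.02, Ccl25, the CCR9 ligand, at 0.03, and the CCR10 ligands Ccl27a and Ccl28 at 0.04 and 0.02. Ccl19, Ccl21a, Ccl27a and Ccl27b share stretches of at least 200 bases at 98% identity or more with other genes, so their values are uncertain. Those of Ccl25 and Ccl27a are also uncertain because their exons overlap Elavl1 and Il11ra1 on the opposite strand.

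**Figure D4:**
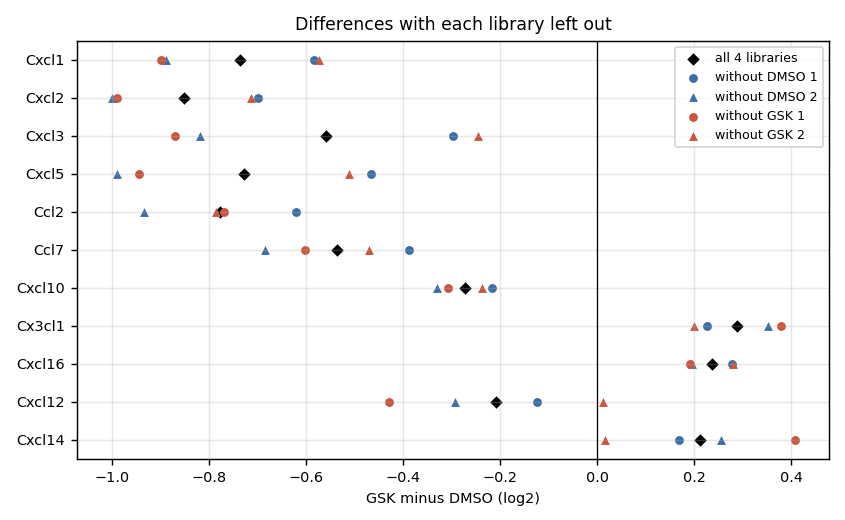
Difference between groups (GSK minus DMSO, log2) for 11 chemokine genes with all 4 libraries (black) and with each library left out (blue for DMSO, red for GSK). Cxcl1, Cxcl2, Cxcl3, Cxcl5, Ccl2, Ccl7 and Cxcl10 remain below 0 and Cx3cl1 and Cxcl16 above it in each case, while Cxcl12 reaches 0.01 and Cxcl14 0.02 without GSK library 2.

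The 3' UTRs of the members were searched for ATTTA, the pentamer of AU-rich elements that mark short-lived cytokine mRNAs for decay. At least 5 copies stood in 10 of the 27 longest annotated 3' UTRs, against 22% of 15728 coding genes of the table. The 4 CXCR2 ligands were all among them, with 11 in Cxcl2, 7 in Cxcl1, 5 in Cxcl3 and 5 in Cxcl5. Ccl2 had 1 and Ccl7 2. The longer nonamer TTATTTATT was found in 4 members, Cxcl1 (2 copies), Cxcl2 (4), Cxcl3 and Cx3cl1 (1 each), and in 8.0% of coding genes. The rest with at least 5 ATTTA were Ccl20 with 9 (difference -0.12) and, with 5 each, Ccl11 (-0.10), Ccl12 (0.05), Ccl28 (0.02), Ccl3 (0.03) and Ccl9 (-0.16). Decay of mRNA was not measured, and a link between copies and differences was not tested.

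Genes of the chemokine pathway were then read from lists of receptors, inducers and decay factors. Few signalling receptors were measurable: of 18 receptors 15 were in the table and 4 passed the filter, none past the threshold in limma (0 at an unadjusted p under 0.05). These were Cxcr6 (6.56), Cxcr4 (4.12), Cxcr5 (3.80) and Cx3cr1 (3.73) in log2 units, while Cxcr2 was at 0.78 and Ccr2 at 1.46. Atypical receptors, which do not signal through G proteins, were better represented, with 4 of 5 tested and all 4 differences negative (median -0.21). None passed the threshold, and 3 were lower at an unadjusted p under 0.05 in limma, where 8.13% of all tested genes were lower by that rule and 50.5% had a negative difference. Ackr3, the scavenger of Cxcl12, was at 12.50 and 12.14 in DMSO and 11.61 and 11.54 in GSK. That difference of -0.75 ± 0.11 (limma adjusted p = 0.0584) was of the size seen in Ccl2, and it was -0.57 without DMSO library 1 and -0.93 without DMSO library 2, where it passed (limma adjusted p = 0.00909) with the spread from the GSK libraries alone. Ccrl2 was at -0.18 and Ackr2, a scavenger of inflammatory CC chemokines, at -0.13.

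Of 15 NF-kB subunits and regulators 1 fell (0.131% of all tested genes did), 0 rose and 12 had a negative difference (50.5% of all tested genes), with a median of -0.07. At an unadjusted p under 0.05 in limma 5 were lower (8.13% of all tested genes) and 0 higher (7.88%). Tnfaip3, the NF-kB-induced feedback inhibitor A20, was at 13.75 and 13.61 in DMSO and 12.91 and 12.64 in GSK and fell by 0.90 ± 0.10 (limma adjusted p = 0.0374). It missed the threshold without DMSO library 1 (-0.83, limma adjusted p = 0.111), with no filter on low values (0.222) and with a variance prior without trend (0.0683). Nfkbia, which encodes the inhibitor IkB-alpha and is itself an NF-kB target, was at -0.68 ± 0.12 (limma adjusted p = 0.0703; 0.042 without GSK library 1, at -0.85), and the subunit gene Rel at -0.33 ± 0.05 (0.0584). In both genes, picked by their small p, the GSK libraries lay below the DMSO libraries (24.5% of all tested genes). Of 8 mRNA decay factors none passed, 7 were negative (50.5% of all tested genes) and 4 were lower at an unadjusted p under 0.05 in limma (8.13% of all). Zfp36, or tristetraprolin, which binds AU-rich elements, was at -0.48 ± 0.12 (limma adjusted p = 0.144), at -0.30 without GSK library 2 and at -0.66 without GSK library 1. Zfp36l1 was at -0.27 (-0.18 without DMSO library 1) and the endonuclease gene Zc3h12a at -0.13.

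Among 17 receptors and adaptors through which cytokines induce chemokines, none passed and 1 had an unadjusted p under 0.05 in limma, Il17ra, a subunit of the interleukin-17 receptor, at -0.29 ± 0.09 (limma adjusted p = 0.192; -0.19 without GSK library 2), against 16.0% of all tested genes. The 10 interferon signal transducers had values on both sides, with none past the threshold, and 3 higher (7.88% of all tested genes) and 2 lower (8.13%) at an unadjusted p under 0.05 in limma. Irf7, a transcription factor induced by type I interferon, was at 0.45 ± 0.12 (limma adjusted p = 0.157), with GSK above DMSO. Irf1, a transcription factor induced by both interferon-gamma and NF-kB, was at -0.26 ± 0.08 (limma adjusted p = 0.185), with GSK below, and at -0.15 without GSK library 2. Of the chemokine-like genes outside the naming rule, Mif was at -0.08 (-0.04 without GSK library 2) and Cklf at 0.02, neither past the threshold in limma, and the platelet chemokines Ppbp and Pf4 and the lymphocyte chemokine Xcl1 were below the filter.

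**Figure D5:**
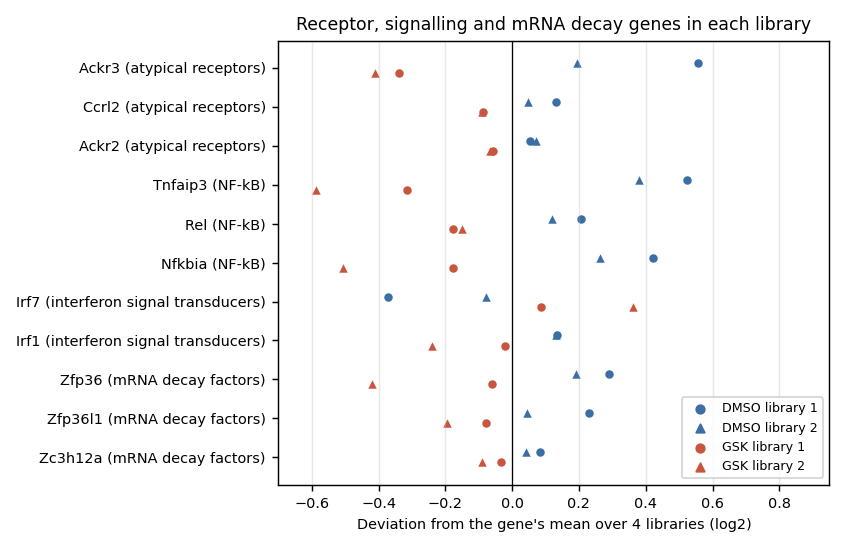
Deviation of each library from the gene's mean over the 4 libraries (log2) for the 3 genes with the smallest p of the atypical receptors, NF-kB genes and mRNA decay factors and for Irf7 and Irf1, DMSO in blue and GSK in red. Only Tnfaip3 passed the threshold. The GSK libraries lie right of the DMSO libraries for Irf7 (24.1% of all tested genes) and left of them for the other 10 genes (24.5%). The genes were picked by their p in this same comparison, so the separation follows in part from the choice.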

How the data were processed

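RNA-seq was done on fibroblasts of 4T1 tumours, DMSO (2 libraries) and GSK (2 libraries), grouped by sample titles. The table the authors deposited holds normalised log2 values (22456 genes, from -1.04 to 20.58; medians 6.15 to 6.16), with no counts. RSEM 1.2.29, DESeq2 1.12.4, Bowtie2 and the builds mm10 and GRCh38 are listed, without roles, in the submitters' processing notes. The sources used here give neither the transformation nor the annotation or strand setting. Low genes vary little between libraries, as on a shrunken log scale. No sample column was left unused (0).

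Symbols and coordinates are from GENCODE M21 (GRCm38; 22335 identifiers matched). The 14548 genes averaging log2 of 10 or more were fitted with limma 3.58.1 (R 4.3.3), with the group as the only term, a variance prior following the mean, two-sided tests and Benjamini-Hochberg adjustment over all tested genes at 0.05. No pseudocount was used. Standard errors (SE) are limma's moderated ones, and SD is over 2 libraries. The test was also run on simulated data. Their variances were drawn from limma's own fitted prior with independent errors, so that run cannot show how the test behaves on these libraries. Near-identical transcripts were sought with blastn 2.17.0. All tested members are named, with up to 3 genes of smallest p per pathway list and the highest marker per marker list. The genes Adgre1, C1qa, S100a8, S100a9, Csf3r, Il1b, Trac, Ptprc, Pecam1, Epcam, Cxcl11, Art3, Zmynd15, Cx3cr1 and genes below the filter were named after their values were seen. One gene that the naming rule picks, and groupings by 1 receptor, are not reported here. Members and lists were chosen with earlier results of these data known. Alternatives were other filters, scalings, variance priors, a replicate block, a threshold of 0.10 and each library left out.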

Additional observations from a re-analysis of the deposited data

How the results depend on the processing

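The number of chemokine genes past the threshold, 0 in limma, was also 0 with no filter, with a filter at log2 of 50, after quantile normalisation and with a variance prior without trend. It was 5 at an adjusted p of 0.10, 2 after median centring (Ccl2, Cxcl2), 1 with a robust variance prior (Ccl2), and 0 to 5 when a library was left out (5 without DMSO library 2, 1 without GSK library 1). The count over all genes, 41, was 363 at 0.10, 126 after median centring, 1 with no filter, 138 with a robust prior, 11 without a trend, 23 on quantile-normalised values and 7 to 194 with a library left out (7 without DMSO library 1, 194 without DMSO library 2, 70 without GSK library 1); the cause was not tested. The median difference of the members was -0.208 with the filter at log2 of 50, which leaves fewer members, and -0.118 to -0.0223 with a library left out.

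With the replicate number as a block, 10 chemokine genes were called (8 lower, 2 higher) and 1374 of all genes. The libraries share only a number: the labels name no pairing, and with 2 pairs the deviations of the libraries numbered 1 correlated at 0.428 over genes. That fit leaves 1 residual degree of freedom per gene.

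Signs turned only when a library was left out, in Ccl11 (-0.308 to 0.0984), Ccl24 (-0.0336 to 0.0155), Ccl28 (-0.00526 to 0.0421), Ccl3 (-0.0245 to 0.081), Ccl8 (-0.118 to 0.072) and Cxcl12 (-0.429 to 0.013). Neither scaling moved the median over all genes by more than 0.00106. Depth is unknown, and 2 libraries a group limit the precision.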
